A study of Mus musculus with 6 samples.

Results

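The 10 genes described here encode the enzymes of serine synthesis (Phgdh, Psat1 and Psph), the folate enzymes that pass carbon units taken from serine (Shmt1, Shmt2, Mthfd1, Mthfd2 and Mthfd1l), asparagine synthetase (Asns) and the transcription factor Atf4. They were read from 26 probe sets whose platform annotation gives one of them as its single symbol, out of 35877 probe sets and 18193 genes tested. Transcript levels came from 6 Affymetrix arrays of mouse bone marrow cells sorted as GFP+Lin-c-Kit+Sca-1+, the gate for stem and early progenitor cells. The first group, BCR/ABL with imatinib, held BCR/ABL-expressing cells of mice treated with imatinib, an inhibitor of the BCR/ABL kinase. The second, BCR/ABL, held such cells from mice with chronic myeloid leukaemia left untreated, and the third, vector, held cells transduced with the GFP vector alone. Each group had 2 arrays, and cells of all groups had been transduced and sorted by GFP. Neither the labels nor the design text used here gives the strain or age of the mice, the dose or duration of imatinib, or how many mice stand behind an array. Whether the spread between 2 arrays of a group is biological or technical is therefore unknown, and the p-values measure no more than that spread. The series asked which genes BCR/ABL regulates in these cells.

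Cells make serine from the glycolytic intermediate phosphoglycerate. Serine hydroxymethyltransferases then move a carbon unit from serine to folate, leaving glycine, and the Mthfd enzymes interconvert the folate-bound units, which end in purines, thymidylate and formate. The mitochondrial branch runs through Shmt2, Mthfd2 and Mthfd1l, and the cytosolic branch through Shmt1 and Mthfd1. Atf4 is translated preferentially when the initiation factor eIF2 is phosphorylated, and is known to activate Asns and genes of serine synthesis and the mitochondrial folate branch. Because its control is largely translational, its transcript level does not measure its activity.

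Promoter windows of all 10 genes were taken from RefSeq (GRCm38.p6), each spanning 250 bases before and 50 bases after a transcript start. The letters TGATGNAA, the core of the element that ATF4 and C/EBP partners bind, were searched on both strands, as was the E-box CACGTG. TGATGNAA lay in a window of 1 of the 10 genes, Asns, and of 4.51% of 27025 genes in the table. CACGTG lay in a window of 0 of the 10 and of 8.09% of all genes. The 250 bases before the start are shown for Asns, which holds the match, and for Mthfd2, which had the largest difference with imatinib and holds none. The Asns sequence is chr6:7693210-7693459 and that of Mthfd2 chr6:83317605-83317854, both on the minus strand and printed 5′ to 3′, with the matched letters in capitals.
Asns: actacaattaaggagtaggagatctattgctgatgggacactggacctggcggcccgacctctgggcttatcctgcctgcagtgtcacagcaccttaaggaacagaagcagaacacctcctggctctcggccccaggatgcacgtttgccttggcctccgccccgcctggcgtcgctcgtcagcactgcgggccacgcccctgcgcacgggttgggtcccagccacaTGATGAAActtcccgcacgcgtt
Mthfd2: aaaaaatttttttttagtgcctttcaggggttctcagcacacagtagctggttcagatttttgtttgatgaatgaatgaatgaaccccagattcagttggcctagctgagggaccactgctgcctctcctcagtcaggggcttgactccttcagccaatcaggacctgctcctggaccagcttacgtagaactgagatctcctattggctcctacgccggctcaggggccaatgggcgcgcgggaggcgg
The Asns match reads TGATGAAA on the strand of the gene, with its first base 23 bases and its last base 16 bases before the start. A match in such a window is a description of its letters, and no match says only that these letters are not in the window.

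Transcripts that mark cell types differed between the arrays, and whether the cells themselves differed in make-up was not measured. Kit, the gating receptor, had intensities of 2659 and 2602 with imatinib, 1332 and 1116 in BCR/ABL cells, and 1637 and 2125 in vector cells. Cd34, another progenitor marker, was bright on every array, at 4375 or above. Of 6 measured markers of stem and progenitor cells, all 6 were higher with imatinib than in BCR/ABL cells. For BCR/ABL against vector 2 of them (Procr and Slamf1) were higher and 4 (Kit, Cd34, Flt3 and Meis1) lower. Those log2 changes ran from -1.08 for Flt3 to 0.55 for Procr. Sca-1 was not analysed here. Mast cell and basophil markers were higher in BCR/ABL cells than in vector cells for 10 of 10 measured genes. Their summed intensity was 66045.5 and 56182.8 with imatinib, 43028.7 and 42511.9 in BCR/ABL cells, and 16604.4 and 11339.5 in vector cells. B cell markers were lower in BCR/ABL cells for 11 of 11 genes, with sums of 718 and 1841 with imatinib, 1349 and 2499 in BCR/ABL cells, and 25141 and 5126 in vector cells, so that the vector arrays also differed from each other. The B cell gene Pax5 was below an intensity of 2 on all arrays, while Ebf1 was at 12.3 and 29.6 with imatinib, 82.0 and 237 in BCR/ABL cells, and 4196 and 586 in vector cells. Megakaryocyte markers had sums of 7021 and 6737 with imatinib, 3923 and 3326 in BCR/ABL cells, and 1830.3 and 2021 in vector cells, and 7 of 7 were higher with imatinib than in either other group. Erythroid sums were 10009 and 3986 with imatinib, 6693 and 4979 in BCR/ABL cells, and 10726 and 5237 in vector cells, higher in replicate 1 of each group, although the alpha-globin gene Hba-a1 was below 2 throughout. Granulocyte sums were 75929 and 81882 with imatinib, 71577 and 81460 in BCR/ABL cells, and 74118 and 49409 in vector cells. Monocyte sums were 12997.5 and 11842 with imatinib, 10249 and 12577 in BCR/ABL cells, and 14841 and 8517 in vector cells. The 6 measured T and NK cell genes had median log2 levels of 7.98 and 4.81 in vector cells. These were 4.75 and 5.26 with imatinib, and 4.45 and 5.15 in BCR/ABL cells. For beta-actin the ratio of signal near the 3′ end to that near the 5′ end, a measure of RNA integrity and labelling, was 1.74 and 1.55 with imatinib, 1.48 and 1.30 in BCR/ABL cells, and 1.81 and 1.62 in vector cells. It was thus lowest in the group where most of the 10 genes were brightest. The part of cell make-up and of RNA quality in the differences below was not tested, and in sorted bulk samples fewer cells of a type and less RNA per cell cannot be told apart.

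The first comparison set imatinib-treated against untreated BCR/ABL cells. All 10 genes were lower with imatinib, by between 0.28 for Psat1 and 1.25 for Mthfd2 on the log2 scale, and so were all 26 of their probe sets. By brightest probe sets the groups did not overlap for 9 of the 10, all but Asns. Among all genes 26.8% were lower in that way, and 31.7% among the 10052 genes above the median level, where all 10 lay. The median of the 10 genes was -0.63, beside -0.01 for all genes. No gene passed limma's test over the whole table, which called 0% of 35877 probe sets, while 14.6% had an unadjusted p under 0.05. At that threshold 9 of the 10 were lower, against 9.15% of all genes and 13.1% of those above the median level. The 10 genes, and the lists below, were chosen with earlier results of these data known. Shares set beside those of all genes are therefore a description and not a test. When arrays were scaled by their medians in place of quantiles, the median of all probe sets moved by -0.27. Under that scaling 7 of the 10 passed as lower (all but Psat1, Psph and Asns), against 3.16% of all probe sets, dim ones included. Calls over all probe sets were then mostly in the direction of the shift, with 1133 lower and 67 higher. With 2 arrays a group, an exact permutation test of a single gene cannot give a p below 0.333, so none was used.

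**Figure D1:**
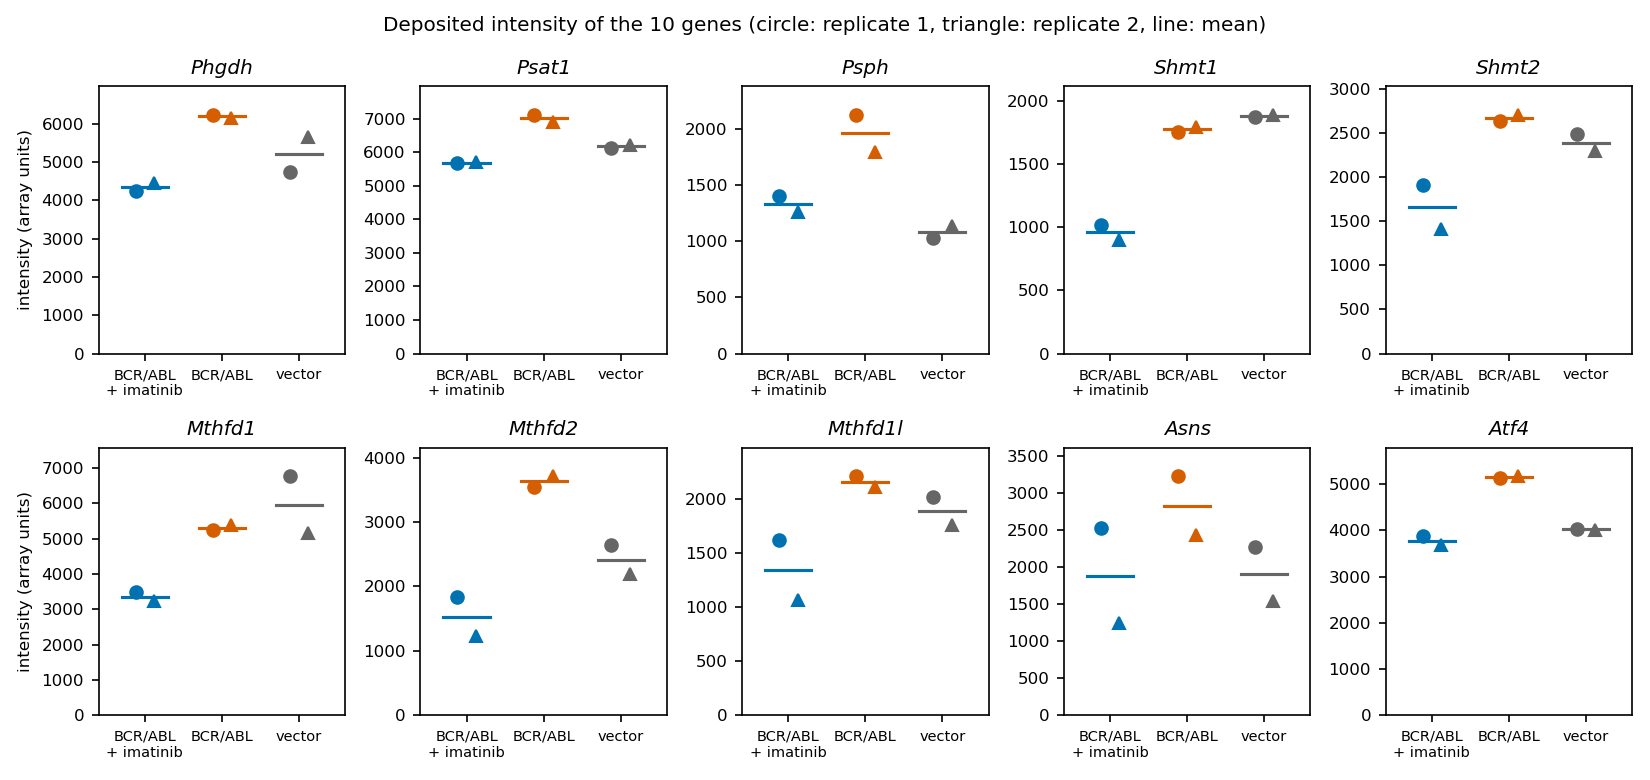
Deposited intensity (array units, linear axis from 0) of the brightest probe set of each of the 10 genes, by group, with 1 point per array and a line at the group mean. In every panel but that of Asns both imatinib arrays lie below both untreated BCR/ABL arrays; Psph is the gene with its lowest level in vector cells.

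Serine synthesis begins with Phgdh, the phosphoglycerate dehydrogenase. Its intensities were 4254 and 4450.4 with imatinib, 6242 and 6162 in BCR/ABL cells, and 4756 and 5656 in vector cells. Both untreated BCR/ABL arrays were the highest, and the imatinib arrays were the lowest. The log2 change was -0.47 (SE 0.10, adjusted p = 0.136, limma) with imatinib against BCR/ABL and 0.27 (SE 0.10, adjusted p = 0.396) for BCR/ABL against vector. All 4 of its probe sets had those signs, with values from -0.88 to -0.36 in the first comparison and from 0.06 to 0.41 in the second. All 4 are of the x_at class, which can bind related transcripts, so the values of Phgdh are uncertain, and 2 further ones are annotated to Phgdh together with Gm8096 or Gm6756 and were not used.

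Psat1, the aminotransferase of the middle step, had intensities of 5672 and 5696 with imatinib, 7119 and 6915 in BCR/ABL cells, and 6129.6 and 6217 in vector cells. The 3 groups stood apart, and arrays within a group lay close together. With imatinib its log2 level differed from that of BCR/ABL cells by -0.28 (SE 0.06, adjusted p = 0.153), the smallest difference of the 10, and BCR/ABL differed from vector by 0.23 (SE 0.06, adjusted p = 0.324). Psph, the phosphatase that releases serine, had intensities of 1406 and 1262 with imatinib, 2128 and 1796 in BCR/ABL cells, and 1025 and 1140.4 in vector cells. Here vector cells were the lowest group, and imatinib arrays lay between the others. Psph had the largest log2 difference of the 10 between BCR/ABL and vector, 0.81 (SE 0.14, adjusted p = 0.165). With imatinib it differed from BCR/ABL by -0.53 (SE 0.14, adjusted p = 0.180) and from vector by 0.28 (95% interval -0.06 to 0.62), the only positive value among the 10 in that last comparison.

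Shmt2 is the mitochondrial serine hydroxymethyltransferase. Its intensities were 1914 and 1409.6 with imatinib, 2635 and 2706 in BCR/ABL cells, and 2484 and 2296 in vector cells. The imatinib arrays were lower than both other groups, which lay near each other. Its log2 change with imatinib was -0.67 (SE 0.16, adjusted p = 0.154) against BCR/ABL and -0.53 (SE 0.16, adjusted p = 0.258) against vector. Of its 4 probe sets the brightest and 2 others are of the x_at class, with the uncertainty given for Phgdh. The 4 ranged from -1.61 to -0.61 in the first of these and from -1.16 to -0.51 in the second. For BCR/ABL against vector the value was 0.14 (95% interval -0.24 to 0.53), and 1 of the 4 probe sets was negative.

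Mthfd2, the mitochondrial methylenetetrahydrofolate dehydrogenase and cyclohydrolase, had intensities of 1831 and 1223 with imatinib, 3552 and 3714 in BCR/ABL cells, and 2641 and 2191 in vector cells. The groups did not overlap, with BCR/ABL the highest and imatinib the lowest. Its log2 change with imatinib against BCR/ABL was -1.25 (SE 0.20, adjusted p = 0.117), the largest of the 10 genes, and its second probe set gave -1.53 (SE 0.18, adjusted p = 0.108). BCR/ABL against vector gave 0.57 (SE 0.20, adjusted p = 0.395), and imatinib against vector -0.68 (SE 0.20, adjusted p = 0.261). The Mthfd2 difference with imatinib passed the test when dim probe sets were left out, with the same change of -1.25 and an adjusted p of 0.0478 or 0.0448 with filters at the 30th and 50th percentile of mean level. More of all probe sets were also called with these filters, as given in the last section. Mthfd1l, the mitochondrial formyltetrahydrofolate synthetase that yields formate, had intensities of 1623 and 1066 with imatinib, 2213 and 2112 in BCR/ABL cells, and 2019 and 1764 in vector cells. Its single probe set gave a log2 change of -0.70 (SE 0.21, adjusted p = 0.225) with imatinib against BCR/ABL. That value was -0.39 without imatinib replicate 2 and -1.01 without imatinib replicate 1.

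Shmt1 is the cytosolic serine hydroxymethyltransferase. Its brightest probe set had intensities of 1018 and 901 with imatinib, 1754 and 1798 in BCR/ABL cells, and 1874 and 1893 in vector cells. The imatinib arrays stood below all 4 others. The log2 change with imatinib was -0.88 (SE 0.12, adjusted p = 0.108) against BCR/ABL and -0.98 (SE 0.12, adjusted p = 0.110) against vector. By brightest probe sets, the latter was the largest of the 10 genes against vector. That difference from vector passed with the filters at the 30th and 50th percentile (adjusted p = 0.0382 and 0.0383). Over all probe sets more were called with these filters too. The 4 Shmt1 probe sets shared the sign of the imatinib difference from BCR/ABL, from -1.25 to -0.81. Against vector they were also negative, with -0.98, -0.42, -0.79 and -0.25 in order of falling brightness, and the mean over them was -0.61. They disagreed for BCR/ABL against vector, with -0.11, 0.63, 0.02 and 0.995 in order of falling brightness, and the mean over them was 0.38.

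Mthfd1, the cytosolic enzyme that joins the dehydrogenase, cyclohydrolase and synthetase activities, had intensities of 3497 and 3222 with imatinib, 5242 and 5393 in BCR/ABL cells, and 6775 and 5153 in vector cells. The imatinib arrays were again the lowest, while the BCR/ABL arrays lay within the spread of the vector arrays. Its log2 change with imatinib was -0.62 (SE 0.14, adjusted p = 0.144) against BCR/ABL and -0.76 (SE 0.14, adjusted p = 0.150) against vector. All 3 probe sets were negative in both, from -1.03 to -0.57 and from -1.07 to -0.76. The difference from vector passed with the 50th-percentile filter (adjusted p = 0.0493), which also raised the number of all probe sets called. BCR/ABL against vector gave -0.13 (95% interval -0.47 to 0.20), and 0.068 without vector replicate 1.

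Asns makes asparagine from aspartate and glutamine, and its promoter window is the one with the TGATGNAA match printed above. Its intensities were 2529 and 1239.8 with imatinib, 3229 and 2431 in BCR/ABL cells, and 2274 and 1538 in vector cells. In each group replicate 1 exceeded replicate 2, and this spread was the widest among the 10 genes. The log2 change with imatinib against BCR/ABL was -0.64 (SE 0.37, adjusted p = 0.506), the groups overlapped, and the value was -0.13 without imatinib replicate 2 and -1.15 without imatinib replicate 1. BCR/ABL against vector gave 0.55 (SE 0.37, adjusted p = 0.617). Imatinib against vector gave -0.09 (95% interval -0.98 to 0.81), which was 0.42 without imatinib replicate 2 and 0.20 without vector replicate 1. A second Asns probe set, of the x_at class, gave -0.70 with imatinib against BCR/ABL, and on it those groups did not overlap.

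Atf4 had intensities of 3883 and 3675 with imatinib, 5138 and 5173 in BCR/ABL cells, and 4032 and 4007 in vector cells on its brightest probe set. Replicates lay close together, and both BCR/ABL arrays stood above the other 4. The log2 change was -0.41 (SE 0.07, adjusted p = 0.121) with imatinib against BCR/ABL and 0.36 (SE 0.07, adjusted p = 0.221) for BCR/ABL against vector. Imatinib and vector differed by -0.05 (95% interval -0.23 to 0.13). A second Atf4 probe set, also bright but of the x_at class, gave -0.15 and -0.08 in the first and second of these, so the higher level in BCR/ABL cells was not seen on both. The third was below an intensity of 20 on every array and cannot be separated from background.

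**Figure D2:**
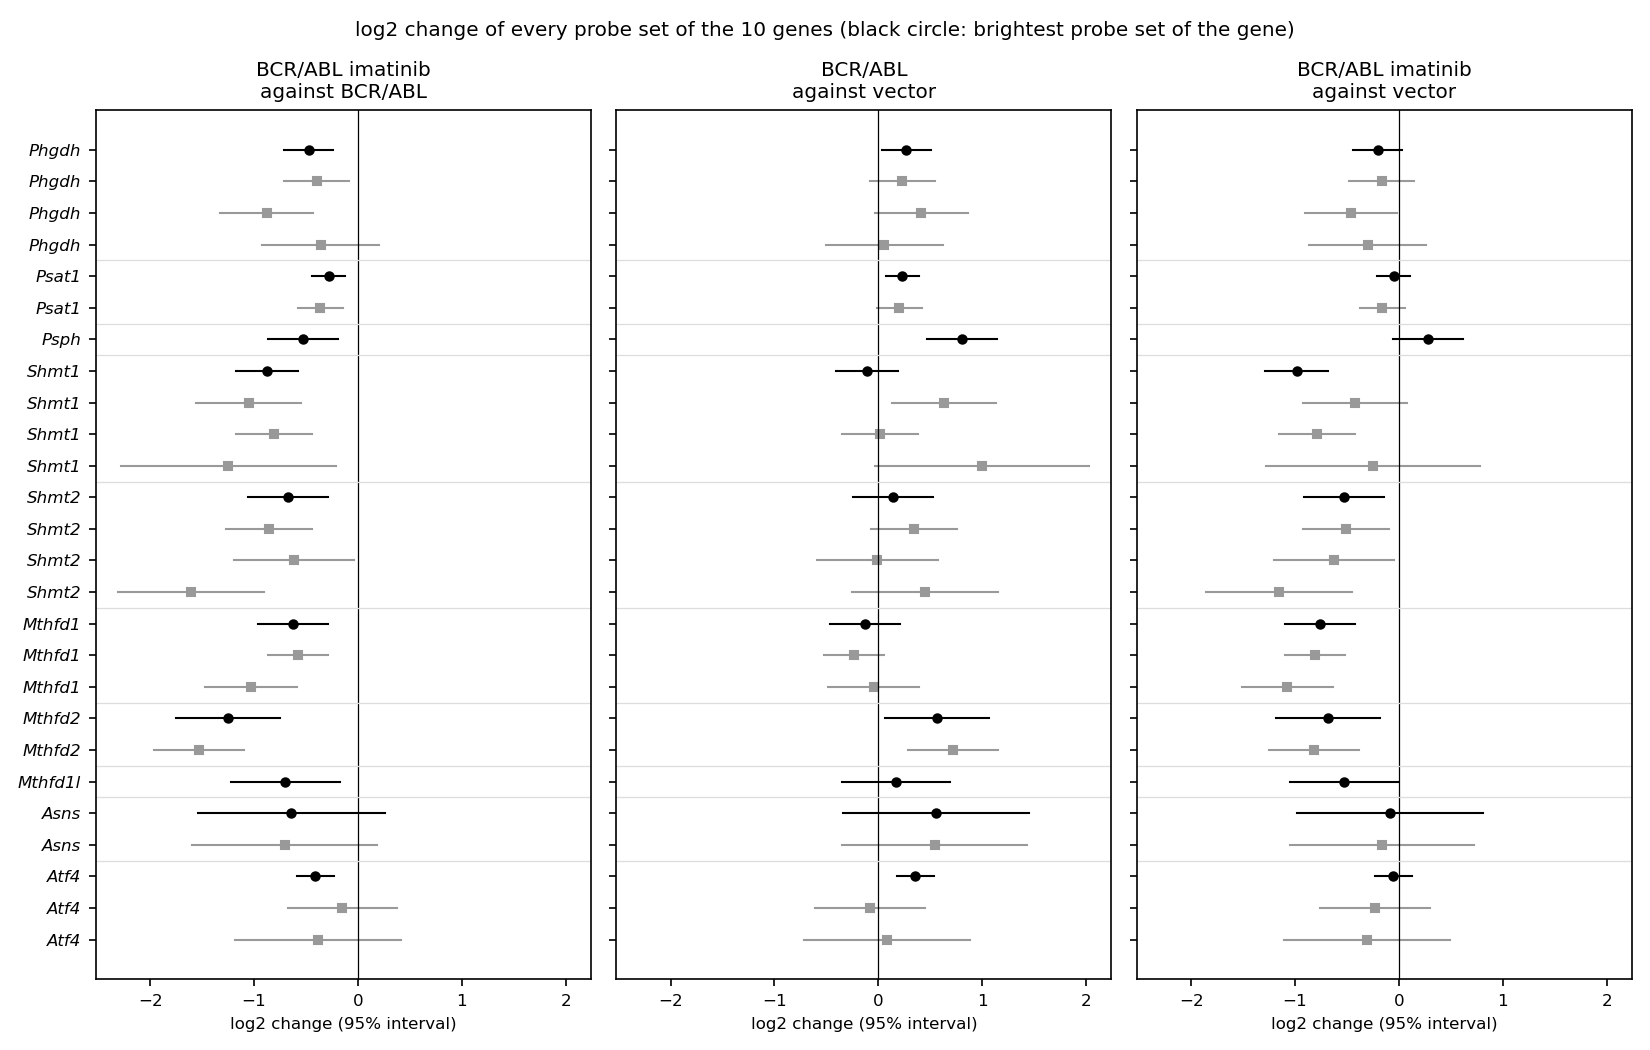
log2 change with its 95% interval, not adjusted for multiple testing, for all 26 probe sets of the 10 genes in the 3 comparisons; black circles mark the brightest probe set of each gene and grey squares the others. All 26 values lie below 0 with imatinib against BCR/ABL, 20 lie above 0 for BCR/ABL against vector, and 25 lie below 0 with imatinib against vector.

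The second comparison set untreated BCR/ABL cells against vector cells, which also differed in the cell type markers given above. Of the 10 genes 8 were higher and 2, Shmt1 and Mthfd1, were lower in BCR/ABL cells, at -0.11 and -0.13. Under array-median scaling, which moved all probe sets by 0.20 at the median, these 2 values were 0.13 and 0.060, and -0.072 and -0.14 relative to that shift. The median was 0.25, beside 0.01 for all genes. None passed the test, which called 0.0613% of all probe sets. The groups did not overlap for 8 genes in the higher direction, against 23.9% of all genes and 26.2% of those above the median level. In the lower direction they did not overlap for the brightest probe set of Shmt1, against 20% and 22.6%. The Shmt1 probe sets at 0.63 and 0.995 did not overlap in the higher direction. Psph, Atf4, Psat1, Mthfd2 and Phgdh were higher at an unadjusted p under 0.05, against 7.13% of all genes and 7.46% of those above the median level, and the count was 2 without BCR/ABL replicate 1 and 3 without BCR/ABL replicate 2. The 95% intervals of the remaining genes, Shmt2, Mthfd1l, Shmt1, Mthfd1 and Asns, spanned 0.

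In the third comparison, imatinib against vector, 9 of the 10 were lower and Psph was higher, with a median of -0.37 beside a median near 0 for all genes. None passed, where 0.0446% of all probe sets were called, and with array-median scaling 2, Shmt1 and Mthfd1, passed as lower, against 0.206% of all probe sets. The groups did not overlap for 8 genes in the lower direction, against 22.3% of all genes and 25.5% of those above the median level, and for Psph in the higher, against 21.8%. At an unadjusted p under 0.05 the 5 folate enzymes were lower (Shmt1, Mthfd1, Mthfd2, Shmt2 and Mthfd1l), against 7.66% of all genes and 10.4% of those above the median level, while the serine synthesis genes, Asns and Atf4 did not reach it. The count was 3 without vector replicate 1 and 3 without imatinib replicate 2. The difference between the folate enzymes and the other genes was not itself tested, and it was read from the brightest probe sets. Another Phgdh probe set, at -0.46, had an unadjusted p under 0.05 (limma). The Shmt1 probe sets at -0.42 and -0.25 did not. The comparisons share arrays, so that a high BCR/ABL array moves the first and second comparison in opposite directions.

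**Figure D3:**
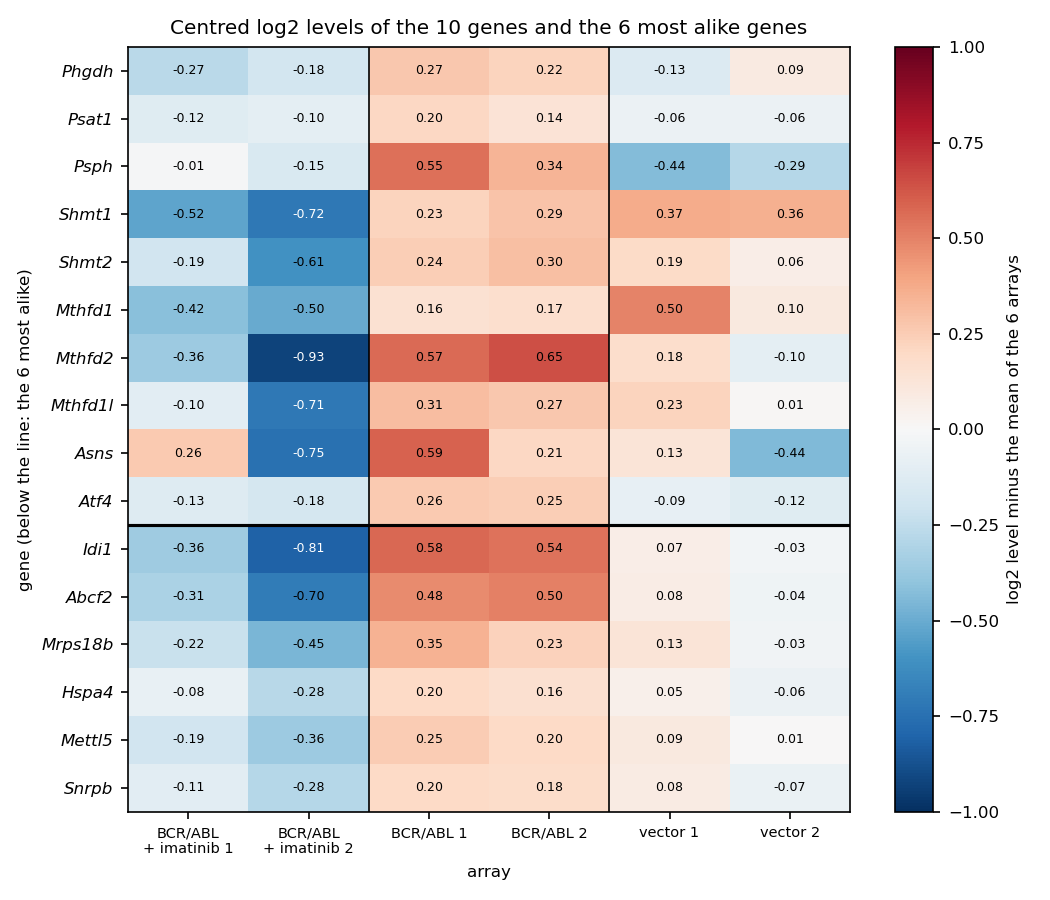
log2 level (after quantile normalization) of each gene minus its mean over the 6 arrays, for the 10 genes above the line and the 6 most alike genes below it, with arrays in columns. The untreated BCR/ABL columns are positive for all 16 genes, and the second imatinib column is negative for all of them.

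Among the 10052 genes above the median level, those whose log2 levels over the 6 arrays followed the mean of the 10 genes most closely were Idi1, Abcf2, Mrps18b, Hspa4, Mettl5 and Snrpb. Their Pearson correlations with that mean ran from 0.991 for Snrpb to 0.995 for Idi1, over 6 arrays that fall in 3 groups. Idi1, an isomerase of sterol and isoprenoid synthesis, differed by -1.14 with imatinib against BCR/ABL (adjusted p = 0.108) and by 0.54 for BCR/ABL against vector (adjusted p = 0.354). Mrps18b encodes a mitochondrial ribosomal protein, Hspa4 a heat shock protein of the HSP110 class and Snrpb a core protein of the spliceosome. Among the 10 genes themselves, the correlation with their own mean ran from 0.57 for Psph to 0.995 for Mthfd2.

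Other genes of folate metabolism were measured for 15 of 18 listed, and none passed in any comparison. With imatinib against BCR/ABL 12 were lower and 3 higher, with a median of -0.35. At an unadjusted p under 0.05, 7 were lower, against 9.15% of all genes and 13.1% of those above the median level. Tyms, the thymidylate synthase, had intensities of 78.6 and 79.2 with imatinib, 245 and 236 in BCR/ABL cells, and 291 and 191 in vector cells. The imatinib arrays were well below the other 4, and the log2 change was -1.65 (adjusted p = 0.128) against BCR/ABL. Gldc, the decarboxylase of the glycine cleavage system, had the largest change of the list in both comparisons, -2.15 (adjusted p = 0.263) with imatinib and 2.996 (adjusted p = 0.286) for BCR/ABL against vector. Its intensities were 67.6 and 19.4 with imatinib, 312 and 123 in BCR/ABL cells, and 28.4 and 2.05 in vector cells, so it was dim outside BCR/ABL cells. Aldh1l2, the mitochondrial formyltetrahydrofolate dehydrogenase, had intensities of 16.1 and 5.35 with imatinib, 48.4 and 20.8 in BCR/ABL cells, and 9.10 and 7.46 in vector cells, levels near background. Its differences, -1.14 with imatinib and 1.16 for BCR/ABL against vector, were -0.63 and 0.65 without BCR/ABL replicate 1. The cytosolic relative Aldh1l1 was at 1.05 with imatinib. For BCR/ABL against vector, 13 of the 15 were higher, with a median of 0.24, while Mtr, the methionine synthase, was at -0.48. Mthfd2l was at 1.29, with intensities of 465 and 439.6 in BCR/ABL cells and 81.8 and 405 in vector cells, and the value was 0.15 without vector replicate 1 and 2.43 without replicate 2.

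Purine synthesis uses formylfolate at the steps of Gart and Atic. Of 12 measured genes of that pathway 8 were lower and 4 higher with imatinib than in untreated BCR/ABL cells, with a median of -0.24. At an unadjusted p under 0.05, 5 of them were lower, against 9.15% of all genes and 13.1% of those above the median level. Gart was at -0.68 (adjusted p = 0.121), Adsl at -0.63, Atic at -0.53 and Adssl1, an adenylosuccinate synthase, at 0.63. For BCR/ABL against vector the median was 0.07. With imatinib against BCR/ABL, genes that use serine and glycine showed no common direction, with 8 of 12 higher and 4 lower and a median of 0.11. Their largest difference was that of Cth, the cystathionine lyase of cysteine synthesis, at -1.67 (adjusted p = 0.108), from intensities of 2.28 and 0.237 with imatinib against 34.4 and 29.99 in BCR/ABL cells, levels at which background weighs heavily. Proline, aspartate and glutamine genes were lower for 6 of 8 with imatinib against BCR/ABL. Got1 was at -0.83 (-0.36 without imatinib replicate 2 and -1.29 without imatinib replicate 1), Pycrl at -0.74 and Aldh18a1 at -0.67. Glul, the glutamine synthetase, was at 0.69 (adjusted p = 0.108). For BCR/ABL against vector 7 of these 8 genes were higher, with a median of 0.27.

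Atf4 partners and target genes split. Of 19 measured, 11 were lower and 8 higher with imatinib than in BCR/ABL cells, with a median of -0.16, and none passed. Stc2, a secreted stanniocalcin, had intensities of 10.2 and 2.49 with imatinib, 116 and 69.3 in BCR/ABL cells, and 6.92 and 2.56 in vector cells. It exceeded an intensity of 16 in BCR/ABL cells alone, with log2 changes of -2.46 (adjusted p = 0.108) with imatinib and 2.47 (adjusted p = 0.124) for BCR/ABL against vector. Atf3, a stress-induced partner, had values of -2.52 (adjusted p = 0.157) and 2.20 (adjusted p = 0.310) in the same comparisons, the second being 1.42 without vector replicate 2. Ddit3, which encodes the stress factor CHOP, was higher with imatinib. Its intensities were 1117 and 1112 with imatinib, 468 and 414 in BCR/ABL cells, and 283 and 421 in vector cells. The log2 change of Ddit3 with imatinib was 1.27 (adjusted p = 0.132), and that of Ddit4, an inhibitor of mTORC1, was 1.28 (adjusted p = 0.186), or 0.74 without BCR/ABL replicate 2. For BCR/ABL against vector the list's median was 0.39, with 13 of 19 higher. Of these, 7 had an unadjusted p under 0.05, against 7.13% of all genes and 7.46% of those above the median level. Trib3, a pseudokinase, was at 1.98 and was among the 7. Cebpb was at 1.01 and was not among them, and its value was 0.26 with vector replicate 2 left out and 1.77 with replicate 1 left out.

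The kinases and factors upstream of Atf4 showed small differences. The list of 9 measured genes held eIF2 subunits, its kinases and a phosphatase subunit, with Gcn1 and Impact added. Changes with imatinib against BCR/ABL ran from -0.20 for Eif2s2 to 0.33 for Impact, with a median of -0.01. Genes of the unfolded protein response of the endoplasmic reticulum were lower with imatinib for 9 of 12, with a median of -0.34. At an unadjusted p under 0.05, 6 were lower, against 9.15% of all genes and 13.1% of those above the median level. Sdf2l1 was at -1.14 (adjusted p = 0.108), Creld2 at -1.10 (adjusted p = 0.108), and Edem1 at -0.63, or -0.28 without imatinib replicate 2 and -0.99 without imatinib replicate 1. Pdia4, at -0.71, was not among the 6, its groups overlapped, and the value was -0.25 without BCR/ABL replicate 1 and -1.17 without BCR/ABL replicate 2. For BCR/ABL against vector the median of that list was 0.12, and Xbp1, one of its transcription factors, was at 0.85 (adjusted p = 0.108).

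Proliferation genes were mostly lower with imatinib too, and none passed the test. Of 19 measured genes of DNA replication and mitosis 17 were lower with imatinib than in BCR/ABL cells, with a median of -0.20. At an unadjusted p under 0.05, 7 were lower, against 9.15% of all genes and 13.1% of those above the median level. Plk1 was at -0.93, Aurka at -0.61, Bub1 at -0.56 and Rrm1 at -0.42, which was -0.23 without imatinib replicate 2. For BCR/ABL against vector 8 of the 19 genes were higher and 11 lower, with a median of -0.08. With imatinib against vector all 19 were lower, with a median of -0.27. The summed intensity of this list was 78892 and 67011 with imatinib, 79795 and 86765 in BCR/ABL cells, and 91902 and 89166 in vector cells. Its part in the lower level of the 10 genes was not tested.

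**Figure D4:**
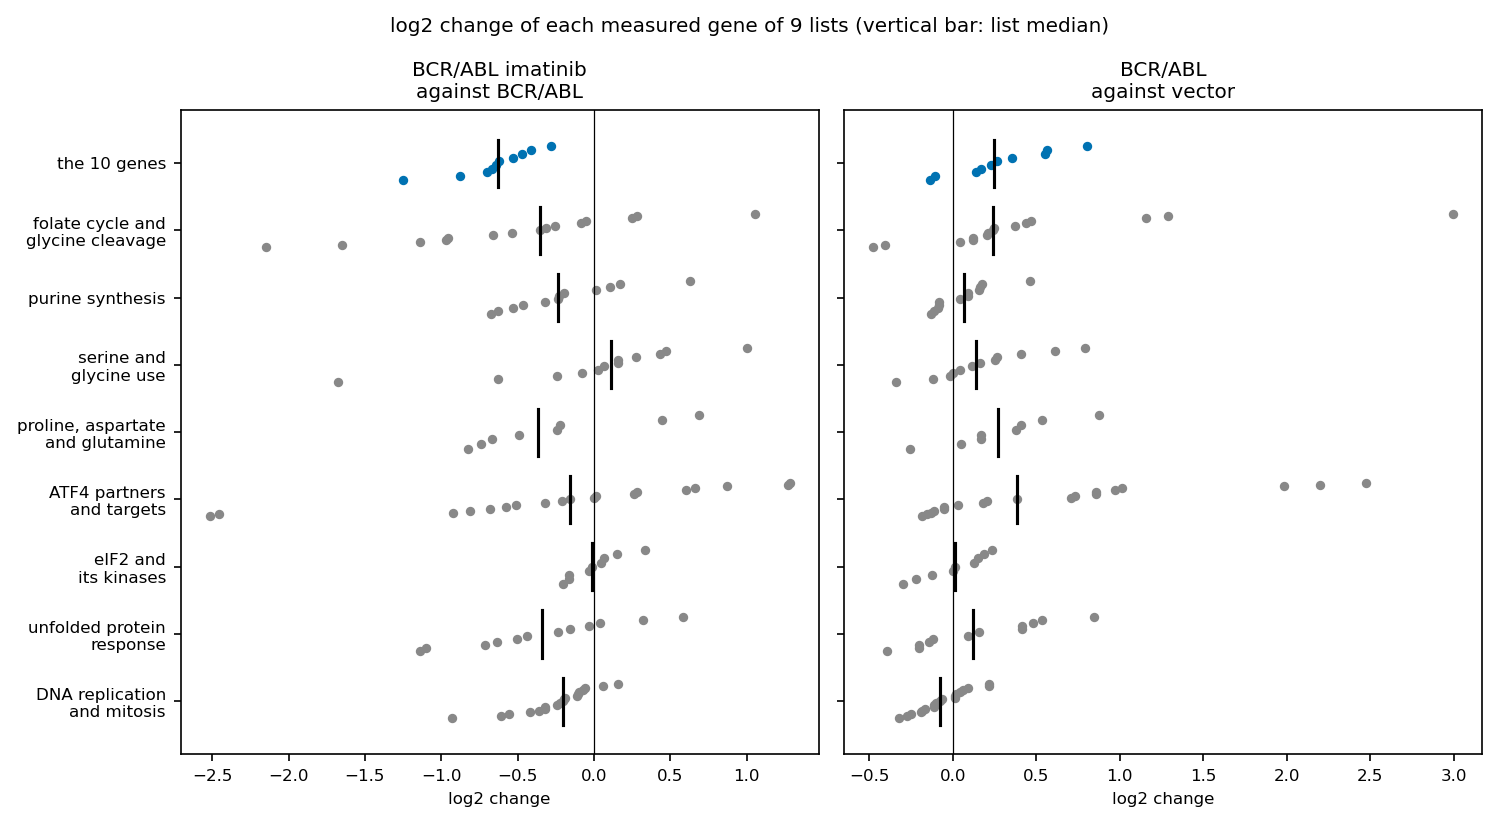
log2 change of each measured gene of 9 gene lists, 1 point a gene, with the list median as a vertical bar, for imatinib against BCR/ABL (left) and BCR/ABL against vector (right). On the left the 10 genes all lie below 0, with a median of -0.63, while the other lists hold genes on both sides of 0.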

How the data were processed

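The deposited values were linear array intensities, 1 per probe set, made with Affymetrix Expression Console and MAS5 per the submitters' processing notes without versions. The deposited intensities had a 2% trimmed mean of 500 on each array. The design text names a whole-transcript array, whereas the probe set identifiers belong to a 3-prime array of the same maker, whose annotation was used. Of 45101 probe sets, 64 controls were left out. Detection calls were not used, so dim values cannot be separated from background.

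Values were transformed to log2(intensity + 16). Array medians then ran from 5.69 to 6.19, so arrays were quantile normalized. The 35877 probe sets with a symbol entered limma 3.58.1 (R 4.3.3) with eBayes and trend (all 6 arrays in 1 model, 3 residual and 2.97 prior degrees of freedom, two-sided, Benjamini-Hochberg over all probe sets, threshold 0.05). The procedure was tested on simulated data. The probe set of highest mean level stood for a gene, and all probe sets of the 10 genes were examined. From each other list the genes with the largest changes, up to 4 a comparison, were named. The 10 genes and the lists were chosen with earlier results of these data known. Alternatives covered the added constant, scaling, filters, variance prior, replicate block, probe set averaging and each array left out. For named genes of the other lists, arrays were left out of the group means with no refit, added after seeing the data, and values that moved by over 1.5 times are given. The number of arrays limits the precision.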

Additional observations from a re-analysis of the deposited data

How the results depend on the processing

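In 16 alternatives a comparison, the 10 genes kept a negative change with imatinib against BCR/ABL in every setting run, with medians from -0.99 to -0.46, and 7 to 10 were lower at an unadjusted p under 0.05, a count added after seeing the data. Array-median scaling moved the median of all probe sets by -0.27 in that comparison, by 0.20 for BCR/ABL against vector and by -0.09 for imatinib against vector. Relative to that shift the 10 genes' median was -0.72 with imatinib, 0.24 and -0.41. Under it 7 of the 10 were called lower with imatinib against BCR/ABL and 2 against vector (Shmt1 and Mthfd1), and 1200 (67 higher, 1133 lower), 298 and 275 (201 higher, 74 lower) probe sets were called in the 3 comparisons in that order, where the tests as reported called 0, 22 and 16. The filters at the 30th and 50th percentile left fewer probe sets to test, 25114 and 17938. With them the counts were 142 and 211 for imatinib against BCR/ABL, with 1 of the 10 called in each. The counts were 189 and 132 for BCR/ABL against vector, and 188 and 181 for imatinib against vector, with 1 and 2 of the 10 called. With 1 as the added constant they were 3, 83 and 78, and with 64 as the constant 3 for imatinib against vector. A robust prior gave 42 and 28 for the comparisons with vector, and a prior without trend 0 and 0. Leaving out 1 array gave 0 to 38 calls for BCR/ABL against vector and 0 to 50 for imatinib against vector, and medians of the 10 genes from -0.78 to -0.46 for imatinib against BCR/ABL and from -0.67 to -0.23 for imatinib against vector. For single genes, BCR/ABL against vector had the opposite sign for Mthfd1 (0.060 with array medians, which is -0.14 relative to the shift, and from -0.33 to 0.068 with 1 array left out, the positive value without vector replicate 1) and Shmt1 (0.13 with array medians, -0.072 relative to the shift, and 0.38 with probe sets averaged), and imatinib against vector for Asns (from -0.59 to 0.42 with 1 array left out, 0.20 without vector replicate 1 and 0.42 without imatinib replicate 2). Same-numbered arrays did not deviate together in every pair of groups (correlations of -0.08, 0.16 and 0.15), so the numbers were not taken to pair samples, and what they mark is not stated; the beta-actin ratio was higher in replicate 1 of each group. The replicate block gave 9 calls for imatinib against vector and called none of the 10 genes. Except where a filter or a left-out array changes what is tested, the cause was not tested.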
